A study of Mus musculus with 13 samples.

Results

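Genes of the BCL2 family, which set whether a lymphocyte survives or dies, were followed in alloresponding donor CD4+ T cells of mice given 1 of 2 compounds that bind the aryl hydrocarbon receptor, or AhR, which becomes an active transcription factor when a small molecule binds it. Of 10 listed genes, 9 were measured, out of 22180 genes named on the arrays. A gene was represented by the probe set that the platform annotation pairs with its symbol alone, and, where there was more than 1, by the set whose mean over the 13 arrays was highest. The members were Bcl2, Bcl2l1, Mcl1, Bak1, Bcl2l11, Bbc3, Pmaip1, Bid and Bad. Bax was listed as well, but no probe set named it alone, and it is not analysed here.

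The mouse model is one of acute graft-versus-host disease. C57BL/6 splenocytes were stained with CFSE, a dye that is diluted at each division, and injected into B6D2F1 hosts, with mice 10 to 12 weeks old. One group of hosts received Cl-BBQ at 10 mg/kg on days 0, 1 and 2 (5 arrays), another received TCDD, or dioxin, at 15 µg/kg on day 0 (4 arrays), and the third received vehicle on days 0, 1 and 2 (4 arrays). At 72 h, donor CD4+ cells that had gone through 2 or more divisions were taken from spleen and lymph node with pan-CD4 microbeads and then by flow sorting, so every group holds only cells that had survived and divided in the host. The ligands differ in dose and in schedule, TCDD was given on 1 day and vehicle on 3, and each array is labelled a biological replicate. Values are log2 expression per probe set after RMA, so a difference of 1 is a doubling, and array medians lay between 4.27 and 4.33. A floor was set at 4.31, which is the middle of the whole table, and the 12710 genes over this floor in 4 or more arrays were tested, all 9 measured members among them.

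BCL2 family proteins decide whether the outer membrane of the mitochondria is opened, the step that releases cytochrome c and starts the caspases. Survival members (BCL2, BCL-XL, MCL1) hold the pore-forming members BAX and BAK in check, and BH3-only members (BIM, PUMA, NOXA, BID, BAD) bind the survival proteins or the pore formers and tip the balance towards death. In T cells, BIM is known for ending clonal expansion after activation, and BCL2 for keeping resting and memory cells alive with signals from interleukin 7.

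Bcl2 and Bcl2l11 (which encodes BIM) were the members that passed the test against vehicle, so the sequence just before a start of each gene is shown. Bcl2l11 has a further RefSeq start, and the window shown was chosen because it held AhR core matches. Both windows are the 250 bases upstream of the start, from RefSeq on GRCm38.p6, written 5′ to 3′ on the strand of the gene. Capitals mark 2 motifs searched on both strands, the AhR core GCGTG, which reads as CACGC on the other strand, and the FOXO site GTAAACA, which there reads as TGTTTAC. The Bcl2 window is chr1:106714291-106714540 on the minus strand, and the Bcl2l11 window is chr2:128125788-128126037 on the plus strand.
Bcl2: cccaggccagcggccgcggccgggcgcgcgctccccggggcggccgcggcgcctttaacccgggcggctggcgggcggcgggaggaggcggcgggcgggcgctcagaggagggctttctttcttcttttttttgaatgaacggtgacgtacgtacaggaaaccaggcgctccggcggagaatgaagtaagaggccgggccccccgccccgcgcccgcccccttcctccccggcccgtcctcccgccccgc
Bcl2l11: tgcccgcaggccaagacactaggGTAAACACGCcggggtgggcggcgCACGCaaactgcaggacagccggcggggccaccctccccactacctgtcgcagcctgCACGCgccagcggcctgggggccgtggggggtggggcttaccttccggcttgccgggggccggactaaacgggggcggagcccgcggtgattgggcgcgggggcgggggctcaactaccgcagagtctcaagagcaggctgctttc

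The Bcl2 window held neither motif. The Bcl2l11 window held 3 matches to the AhR core, which begin 222, 203 and 146 bases before the start, and 1 FOXO match that begins 227 bases before it and overlaps the first AhR core match. The second RefSeq start of Bcl2l11 had no match to either. Over all 32851 windows of this length, 28.16% held the AhR core at least once, 2.77% held it at least 3 times and 3.17% held the FOXO site. The Bcl2l11 window was chosen for its matches, so these shares do not measure how unusual it is. RefSeq entries were used for 9 listed genes, Bax included, with 15 windows, and Pmaip1 was left out. The AhR core was found in 7 of these windows, belonging to Bcl2l1, Bcl2l11, Bbc3 and Bad, with 4 matches in 1 window of Bbc3 and 3 in 1 window of Bad, members that did not pass the test, and the FOXO site in 2, belonging to Bcl2l11 and Bbc3. Of the Bbc3 windows, 2 overlap, so a match may be counted in both. A match is a run of letters, and binding was not measured.

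TCDD was compared with vehicle to ask how the prototype AhR ligand altered the family. Bcl2l11 rose and Bcl2 fell with TCDD, and the other 7 members did not pass the test. Bcl2l11 averaged 7.66 ± 0.23 with TCDD and 6.66 ± 0.08 with vehicle (SD, n = 4 each), and Bcl2 averaged 6.90 ± 0.24 with TCDD and 7.74 ± 0.16 with vehicle (SD, n = 4 each). In all, 2 of 9 members were called, 1 higher and 1 lower, where 853 genes or 6.71% of all tested genes were called, 3.21% higher and 3.5% lower (limma, Benjamini-Hochberg adjustment over 12710 genes). The median log2 difference of the 9 members was 0.08, beside -9e-04 over all tested genes.

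Cl-BBQ was compared with vehicle for the other ligand regimen. Again Bcl2l11 rose, Bcl2 fell and the other 7 members did not pass the test. Bcl2l11 averaged 7.85 ± 0.32 with Cl-BBQ (SD, n = 5) and Bcl2 averaged 7.13 ± 0.26 (SD, n = 5), against 6.66 ± 0.08 for Bcl2l11 and 7.74 ± 0.16 for Bcl2 with vehicle (SD, n = 4). Here 2 of 9 members were called, 1 higher and 1 lower, where 1441 genes or 11.3% of those tested were called, 5.31% higher and 6.03% lower. The median log2 difference of the members was 0.11, beside -0.01 over all tested genes. Both ligand comparisons use the same 4 vehicle arrays, so the likeness of their results is not independent evidence. RNA came from bulk sorted cells, in which fewer cells of a kind and less RNA per cell cannot be told apart.

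**Figure D1:**
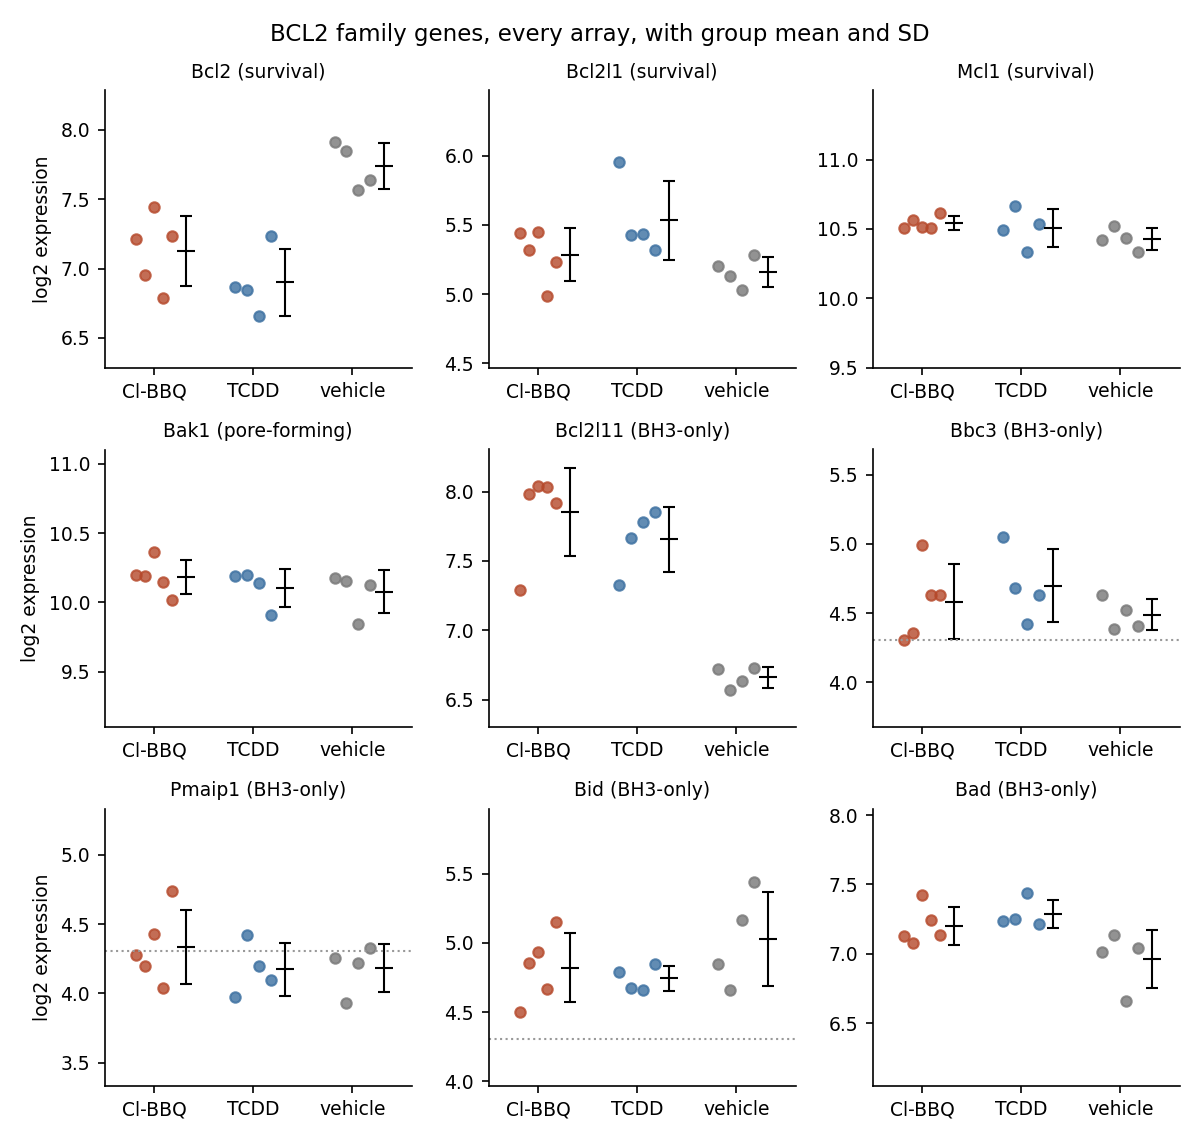
Log2 expression of the 9 measured BCL2 family genes in every array (points), with the group mean and SD beside them, for Cl-BBQ (5 arrays), TCDD (4) and vehicle (4). The dotted line marks the floor of 4.31 where it falls within a panel, all panels span the same number of log2 units, and only Bcl2 and Bcl2l11 show both ligand groups clear of vehicle.

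Bcl2 encodes the founding survival protein of the family. Its log2 expression was 7.21, 6.95, 7.44, 6.79 and 7.23 in the Cl-BBQ arrays, 6.87, 6.84, 6.66 and 7.24 in the TCDD arrays, and 7.91, 7.85, 7.57 and 7.64 in the vehicle arrays. Every Cl-BBQ and TCDD array lay below the lowest vehicle array, and the 2 ligand groups overlapped each other. With TCDD, Bcl2 fell by 0.84 on the log2 scale (SE 0.15, 95% interval -1.16 to -0.51, limma adjusted p = 0.00279), or 1.79-fold. With Cl-BBQ it fell by 0.61 (SE 0.14, interval -0.92 to -0.31, limma adjusted p = 0.0107), or 1.53-fold. The further Bcl2 probe set was dim, above the floor in 6 of 13 arrays, and averaged 4.22 ± 0.21 with Cl-BBQ (n = 5), 3.94 ± 0.28 with TCDD (n = 4) and 4.65 ± 0.23 with vehicle (SD, n = 4). When every probe set was tested, this further set fell with TCDD by 0.71 (limma adjusted p = 0.0127), while its difference with Cl-BBQ was -0.43 and did not pass (limma adjusted p = 0.0847).

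Bcl2l1 encodes BCL-XL, the survival protein that activated T cells induce. Its log2 expression was 5.44, 5.32, 5.45, 4.99 and 5.23 with Cl-BBQ, 5.95, 5.42, 5.44 and 5.32 with TCDD, and 5.21, 5.13, 5.03 and 5.28 with vehicle. All TCDD arrays lay above all vehicle arrays, with the lowest TCDD value close to the highest vehicle value, and 1 TCDD array stood above the rest. The TCDD difference of 0.37 (interval 0.07 to 0.67) did not pass after adjustment (limma adjusted p = 0.163), and without the first TCDD array it was 0.23. The Cl-BBQ difference was 0.12 (interval -0.16 to 0.41, limma adjusted p = 0.659).

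Mcl1 encodes a short-lived survival protein that T cells depend on. Its means were 10.54 ± 0.05 with Cl-BBQ (n = 5), 10.51 ± 0.14 with TCDD (n = 4) and 10.43 ± 0.08 with vehicle (SD, n = 4), and the groups overlapped. The interval of the difference from vehicle ran from -0.11 to 0.27 with TCDD and from -0.07 to 0.29 with Cl-BBQ, so a change of the size seen for Bcl2 lies outside both. The further Mcl1 probe set averaged 9.59 ± 0.09 with Cl-BBQ, 9.46 ± 0.05 with TCDD and 9.38 ± 0.19 with vehicle, and did not pass in either comparison (limma adjusted p = 0.188 with Cl-BBQ and 0.737 with TCDD). Of the 3 survival members measured, then, 1 fell and 2 did not pass, with both ligands, where 3.5% of all tested genes fell with TCDD and 6.03% with Cl-BBQ.

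**Figure D2:**
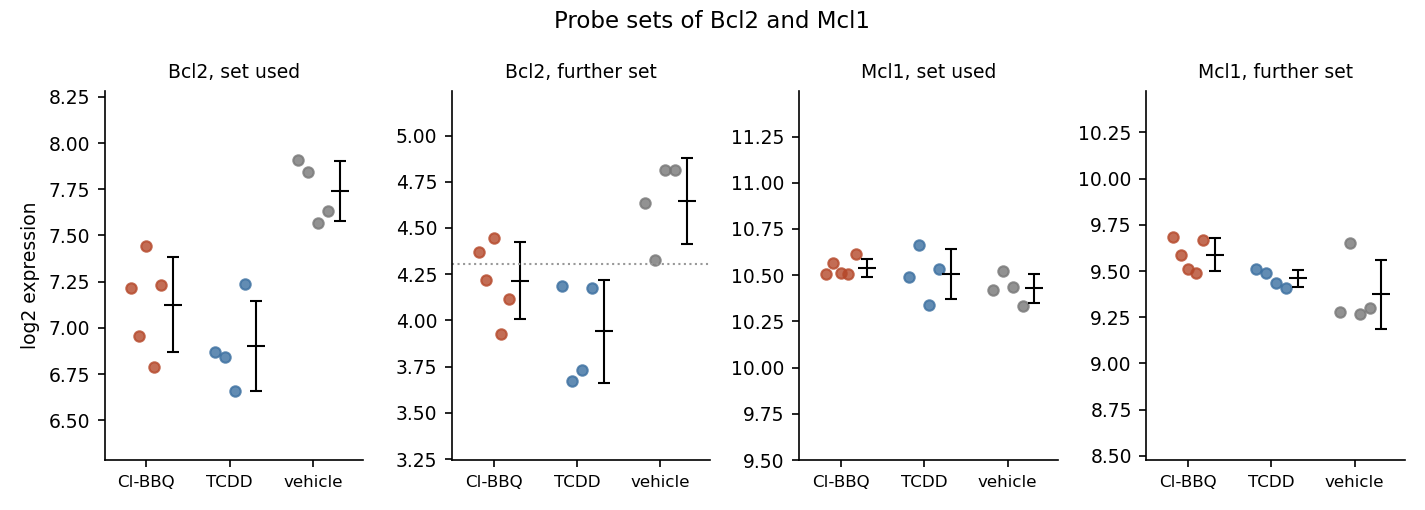
Log2 expression in every array (points), with group mean and SD, of the 2 probe sets of Bcl2 and the 2 of Mcl1, for Cl-BBQ, TCDD and vehicle. The further Bcl2 set lies around the floor of 4.31 (dotted) and has its highest mean, 4.65, with vehicle, as the set used does, while neither Mcl1 set separates the ligand groups from vehicle.

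Bak1 encodes BAK, the pore-forming member that was measured. It averaged 10.18 ± 0.12 with Cl-BBQ (n = 5), 10.11 ± 0.14 with TCDD (n = 4) and 10.08 ± 0.16 with vehicle (SD, n = 4). The groups overlapped, and the intervals of the differences were -0.20 to 0.26 with TCDD (limma adjusted p = 0.928) and -0.11 to 0.32 with Cl-BBQ (limma adjusted p = 0.603).

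Bcl2l11 was the BH3-only member that rose. Its log2 expression was 7.29, 7.98, 8.04, 8.03 and 7.92 in the Cl-BBQ arrays, 7.33, 7.66, 7.78 and 7.85 in the TCDD arrays, and 6.72, 6.57, 6.63 and 6.73 in the vehicle arrays. Every ligand array lay above the highest vehicle array, the vehicle arrays lay close together, and the first Cl-BBQ array was the lowest of its group. With TCDD, Bcl2l11 was higher by 1.00 on the log2 scale (SE 0.16, interval 0.66 to 1.34, limma adjusted p = 0.00105), or 1.99-fold. With Cl-BBQ it was higher by 1.19 (SE 0.15, interval 0.87 to 1.52, limma adjusted p = 7.26e-05), or 2.29-fold. It was the member with the largest log2 difference from vehicle, in either direction, with each ligand.

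**Figure D3:**
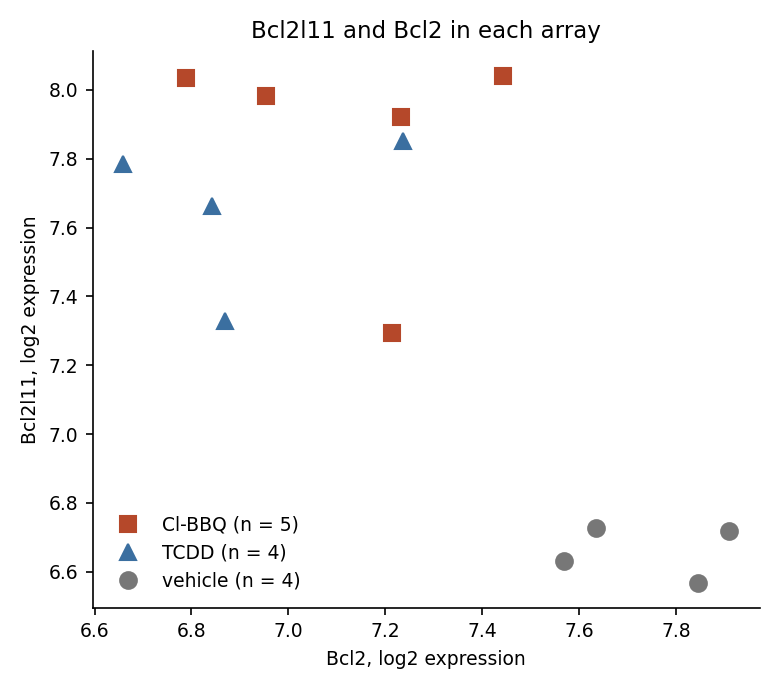
Bcl2l11 (vertical axis) against Bcl2 (horizontal axis), both log2 expression, 1 point per array, for Cl-BBQ (squares, n = 5), TCDD (triangles, n = 4) and vehicle (circles, n = 4). The vehicle arrays sit at the lower right, with Bcl2 at 7.57 or more and Bcl2l11 at 6.73 or less, and every ligand array has less Bcl2 and more Bcl2l11 than any of them.

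Bad encodes a BH3-only protein that is silenced by phosphorylation when growth factors are present. Its log2 expression was 7.13, 7.08, 7.42, 7.24 and 7.13 with Cl-BBQ, 7.24, 7.25, 7.44 and 7.21 with TCDD, and 7.01, 7.13, 6.66 and 7.04 with vehicle. All TCDD arrays lay above all vehicle arrays, and the Cl-BBQ arrays overlapped them. The difference was 0.32 with TCDD (interval 0.08 to 0.57, limma adjusted p = 0.128) and 0.24 with Cl-BBQ (interval 0.01 to 0.47, limma adjusted p = 0.202), so neither passed. Without the third vehicle array, the lowest, they were 0.22 with TCDD and 0.14 with Cl-BBQ.

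Bbc3 encodes PUMA and Pmaip1 encodes NOXA, both known as targets of p53 in damaged cells. Bbc3 averaged 4.58 ± 0.27 with Cl-BBQ (n = 5), 4.70 ± 0.26 with TCDD (n = 4) and 4.49 ± 0.11 with vehicle (SD, n = 4), with a difference of 0.21 with TCDD (interval -0.12 to 0.54, limma adjusted p = 0.55) and 0.10 with Cl-BBQ (interval -0.22 to 0.41, limma adjusted p = 0.779). Pmaip1 averaged 4.33 ± 0.27 with Cl-BBQ, 4.17 ± 0.19 with TCDD and 4.18 ± 0.17 with vehicle, and only 4 of 13 arrays were above the floor, so these values may lie at the background of the array and a difference was not detectable (limma adjusted p = 0.987 with TCDD and 0.582 with Cl-BBQ). Bid encodes the BH3-only protein that caspase 8 cleaves and that links death receptors to the mitochondria. It averaged 4.82 ± 0.25 with Cl-BBQ, 4.74 ± 0.09 with TCDD and 5.03 ± 0.34 with vehicle, with a difference of -0.28 with TCDD (interval -0.63 to 0.07, limma adjusted p = 0.41) and -0.21 with Cl-BBQ (interval -0.54 to 0.13, limma adjusted p = 0.485). Of the 5 BH3-only members, then, 1 rose and 4 did not pass, with both ligands, where 3.21% of all tested genes rose with TCDD and 5.31% with Cl-BBQ.

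Counted by overlap of the arrays, 4 of 9 members had all TCDD arrays on one side of all vehicle arrays (Bcl2l11, Bcl2l1 and Bad higher, Bcl2 lower), beside 13.6% of all tested genes, 6.31% higher and 7.28% lower. With Cl-BBQ there were 2 of 9 (Bcl2l11 higher, Bcl2 lower), beside 12.9%, 6.08% higher and 6.8% lower. Between Cl-BBQ and TCDD there were 0 of 9, beside 2.11%, 1.03% higher and 1.08% lower.

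Cl-BBQ was also compared with TCDD directly, with their doses and schedules different. No member passed (0 of 9, limma), where 3 genes or 0.0236% of those tested were called. At an unadjusted p under 0.05 (limma) there were 0 of 9 members between the ligands. Against vehicle there were 4 of 9 with TCDD and 3 of 9 with Cl-BBQ. The share of all tested genes at that unadjusted threshold was not counted, here or for the lists below. Bcl2l11 averaged 7.85 with Cl-BBQ and 7.66 with TCDD, a difference of 0.20 (interval -0.13 to 0.52, limma adjusted p = 0.903). Bcl2 averaged 7.13 with Cl-BBQ and 6.90 with TCDD, a difference of 0.22 (interval -0.08 to 0.53, limma adjusted p = 0.877). Bcl2l1 averaged 5.29 ± 0.19 with Cl-BBQ and 5.53 ± 0.29 with TCDD, a difference of -0.25 (interval -0.53 to 0.04, limma adjusted p = 0.835). The intervals for Bcl2 and Bcl2l11 leave room for a difference of about 0.5 on the log2 scale, so the arrays do not show that the regimens acted alike. The median log2 difference of the members was 0.08, beside -0.0044 over all tested genes.

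**Figure D4:**
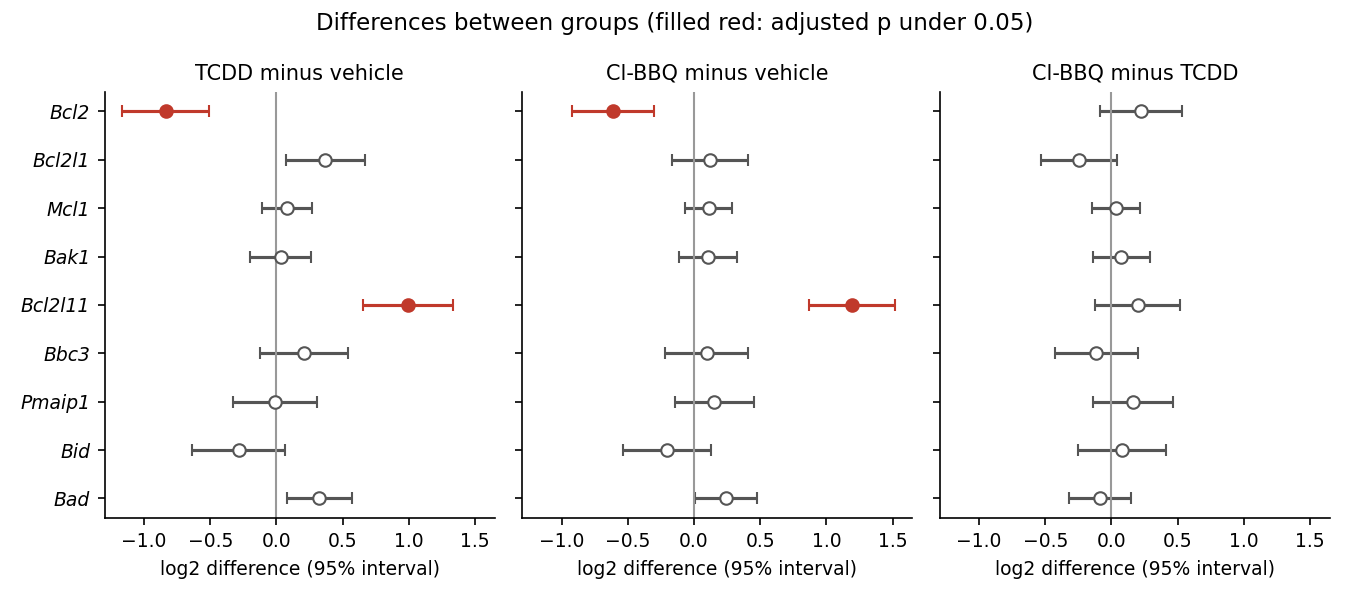
Log2 differences of the 9 measured members with 95% intervals from the limma model, with 1 panel for TCDD minus vehicle, 1 for Cl-BBQ minus vehicle and 1 for the direct comparison, Cl-BBQ minus TCDD. Filled red points have an adjusted p under 0.05, which are Bcl2 (below 0) and Bcl2l11 (above 0) against vehicle with each ligand and none between the ligands.

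Further genes of the family were taken from a list of 15, of which 11 had a probe set and 6 were above the floor. Over all tested genes 6.71% were called with TCDD and 11.3% with Cl-BBQ. None of the 6 further genes was called with either ligand (limma, with 0 of 6 with TCDD and 1 of 6 with Cl-BBQ at an unadjusted p under 0.05). The survival genes among them were Bcl2a1a, with 8.69 ± 0.13 with Cl-BBQ, 8.55 ± 0.16 with TCDD and 8.54 ± 0.14 with vehicle, and Bcl2l2 (BCL-W), with 4.92 ± 0.14 with Cl-BBQ, 4.92 ± 0.26 with TCDD and 4.88 ± 0.06 with vehicle. Bcl2a1a has near-identical copies in the mouse, so its probe set may read more than 1 gene. Bok, a relative of the pore formers, averaged 5.75 ± 0.03 with Cl-BBQ, 5.78 ± 0.16 with TCDD and 5.81 ± 0.06 with vehicle.

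Bik encodes a BH3-only protein of the endoplasmic reticulum. It averaged 5.43 ± 0.23 with Cl-BBQ (n = 5), 4.97 ± 0.28 with TCDD (n = 4) and 4.92 ± 0.29 with vehicle (SD, n = 4), with overlapping groups. Its difference was 0.51 with Cl-BBQ (interval 0.16 to 0.86, limma adjusted p = 0.058) and 0.06 with TCDD (interval -0.31 to 0.42, limma adjusted p = 0.915). In the direct comparison, Cl-BBQ minus TCDD, its difference was 0.45 (interval 0.11 to 0.80) and did not pass (limma adjusted p = 0.627). Bmf, a BH3-only gene, had differences of 0.18 with TCDD and 0.12 with Cl-BBQ, and Bcl2l13, which encodes BCL-RAMBO, had -0.25 with TCDD and -0.24 with Cl-BBQ, none of which passed. Bcl2l10, Hrk, Bcl2l14, Bcl2l15 and Bnip3 lay below the floor in nearly all arrays and were not tested.

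The steps after the mitochondria were read from a list of the apoptosome, caspases and mitochondrial factors. Of its 14 tested genes none was called, beside 6.71% of all tested genes with TCDD and 11.3% with Cl-BBQ. At an unadjusted p under 0.05 (limma) there were 1 with TCDD and 2 with Cl-BBQ. The median log2 difference of the list was -0.10 with TCDD and 6e-04 with Cl-BBQ. Among 5 genes named as inhibitors of apoptosis, Birc5 fell with both ligands and Birc3 rose with Cl-BBQ. That is 1 of 5 with TCDD, beside 6.71% of all tested genes, and 2 of 5 with Cl-BBQ, beside 11.3%. Birc5 encodes survivin, which also serves chromosome segregation in mitosis, and it averaged 7.44 ± 0.27 with Cl-BBQ (n = 5), 7.84 ± 0.20 with TCDD (n = 4) and 8.87 ± 0.20 with vehicle (SD, n = 4). It fell by 1.03 with TCDD (limma adjusted p = 0.000567) and by 1.43 with Cl-BBQ (limma adjusted p = 9.19e-06). Birc3, which encodes a ubiquitin ligase of tumour necrosis factor signalling, was higher by 0.50 with Cl-BBQ (limma adjusted p = 0.0163) and differed by 0.07 with TCDD (limma adjusted p = 0.848). Birc3 did not pass with Cl-BBQ when the second or the third vehicle array was left out (adjusted p up to 0.0602).

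The counts of the next lists stand beside 3.21% of all tested genes called higher with TCDD and 5.31% with Cl-BBQ. In the death receptor list 1 of 10 tested genes rose with each ligand and none fell. That gene was Fasl, the ligand through which T cells kill FAS-bearing cells, at 7.15 ± 0.30 with Cl-BBQ (n = 5), 7.05 ± 0.13 with TCDD (n = 4) and 5.81 ± 0.52 with vehicle (SD, n = 4). It was higher by 1.24 with TCDD (limma adjusted p = 0.00223) and by 1.34 with Cl-BBQ (limma adjusted p = 0.000412). In the p53 pathway list 1 of 12 rose with each ligand and none fell. It was Cdkn1a, which encodes the cell-cycle inhibitor p21, at 7.13 ± 0.17 with Cl-BBQ, 6.88 ± 0.44 with TCDD and 5.83 ± 0.41 with vehicle. Its difference was 1.05 with TCDD (limma adjusted p = 0.00705, with overlapping arrays) and 1.30 with Cl-BBQ (limma adjusted p = 0.000508). The median log2 difference of the p53 list was 0.09 with TCDD and -0.01 with Cl-BBQ, and that of the death receptor list 0.04 with TCDD and 0.17 with Cl-BBQ.

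Survival signals from cytokines reach T cells through a list of receptors, kinases and STAT5 factors, of which 4 of 11 tested genes rose with each ligand and none fell, where 3.21% of all tested genes rose with TCDD and 5.31% with Cl-BBQ. The median log2 difference was 0.11 with TCDD and 0.18 with Cl-BBQ. Il7r, the receptor chain for interleukin 7, averaged 8.30 ± 0.26 with Cl-BBQ (n = 5), 7.14 ± 0.19 with TCDD (n = 4) and 5.78 ± 0.37 with vehicle (SD, n = 4). It was higher by 1.36 with TCDD (limma adjusted p = 0.000228) and by 2.53 with Cl-BBQ (limma adjusted p = 2.25e-07), in the same arrays in which Bcl2 was lower. Between the ligands it was higher by 1.16 with Cl-BBQ (limma adjusted p = 0.0392), a call that 13 of 21 alternatives did not make.

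The other genes of that list that rose were Il4ra, Pim1 and Il2ra. Il4ra, a receptor chain for interleukin 4, was higher by 0.83 with TCDD (limma adjusted p = 0.000232) and by 1.19 with Cl-BBQ (limma adjusted p = 2.28e-06). Pim1, a survival kinase induced through STAT5, was higher by 0.70 with TCDD (limma adjusted p = 0.0333) and by 1.26 with Cl-BBQ (limma adjusted p = 0.000176). Il2ra, or CD25, which gives the interleukin 2 receptor its high affinity, was higher by 0.66 with TCDD (limma adjusted p = 0.0378) and by 0.97 with Cl-BBQ (limma adjusted p = 0.00116). The TCDD results of Pim1 and Il2ra were lost when any 1 of 6 arrays was left out. These were TCDD arrays 1, 2 and 3 and vehicle arrays 2, 3 and 4 for Pim1 (adjusted p up to 0.102), and TCDD arrays 1, 2 and 3 and vehicle arrays 1, 3 and 4 for Il2ra (adjusted p up to 0.112).

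A list of known regulators of the members, both transcription factors and enzymes that act on the proteins, had 1 of 14 tested genes higher with TCDD, 4 of 14 higher with Cl-BBQ and none lower, beside 3.21% higher with TCDD and 5.31% with Cl-BBQ over all tested genes. The median log2 difference was 0.15 with TCDD and 0.09 with Cl-BBQ. Runx3, a transcription factor of T cell fate, averaged 8.63 ± 0.10 with Cl-BBQ (n = 5), 8.39 ± 0.08 with TCDD (n = 4) and 7.77 ± 0.03 with vehicle (SD, n = 4). It was higher by 0.62 with TCDD (limma adjusted p = 0.000268) and by 0.86 with Cl-BBQ (limma adjusted p = 3.49e-06).

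Foxo1, one of the FOXO factors that are known to act on Bcl2l11, averaged 8.65 ± 0.06 with Cl-BBQ (n = 5), 8.59 ± 0.12 with TCDD (n = 4) and 8.29 ± 0.11 with vehicle (SD, n = 4). It was higher by 0.36 with Cl-BBQ (limma adjusted p = 0.0122), and its TCDD difference of 0.30 did not pass (limma adjusted p = 0.0611). The TCDD difference passed under 4 of 21 alternatives, 1 of which left out the second TCDD array (adjusted p = 0.0378). Myc, a growth factor-responsive transcription factor, was higher by 0.73 with Cl-BBQ (limma adjusted p = 0.00272) and differed by 0.33 with TCDD (limma adjusted p = 0.256). Atf4, a transcription factor of the stress response, was higher by 0.35 with Cl-BBQ (limma adjusted p = 0.0222) and differed by 0.24 with TCDD (limma adjusted p = 0.209). Atf4 did not pass with Cl-BBQ when the first or the third vehicle array was left out (adjusted p up to 0.0651). Whether Birc3, Foxo1, Myc and Atf4 respond differently to the ligands was tested in the direct comparison. None of them passed there (limma adjusted p = 0.525 for Birc3, 0.973 for Foxo1, 0.627 for Myc and 0.908 for Atf4).

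**Figure D5:**
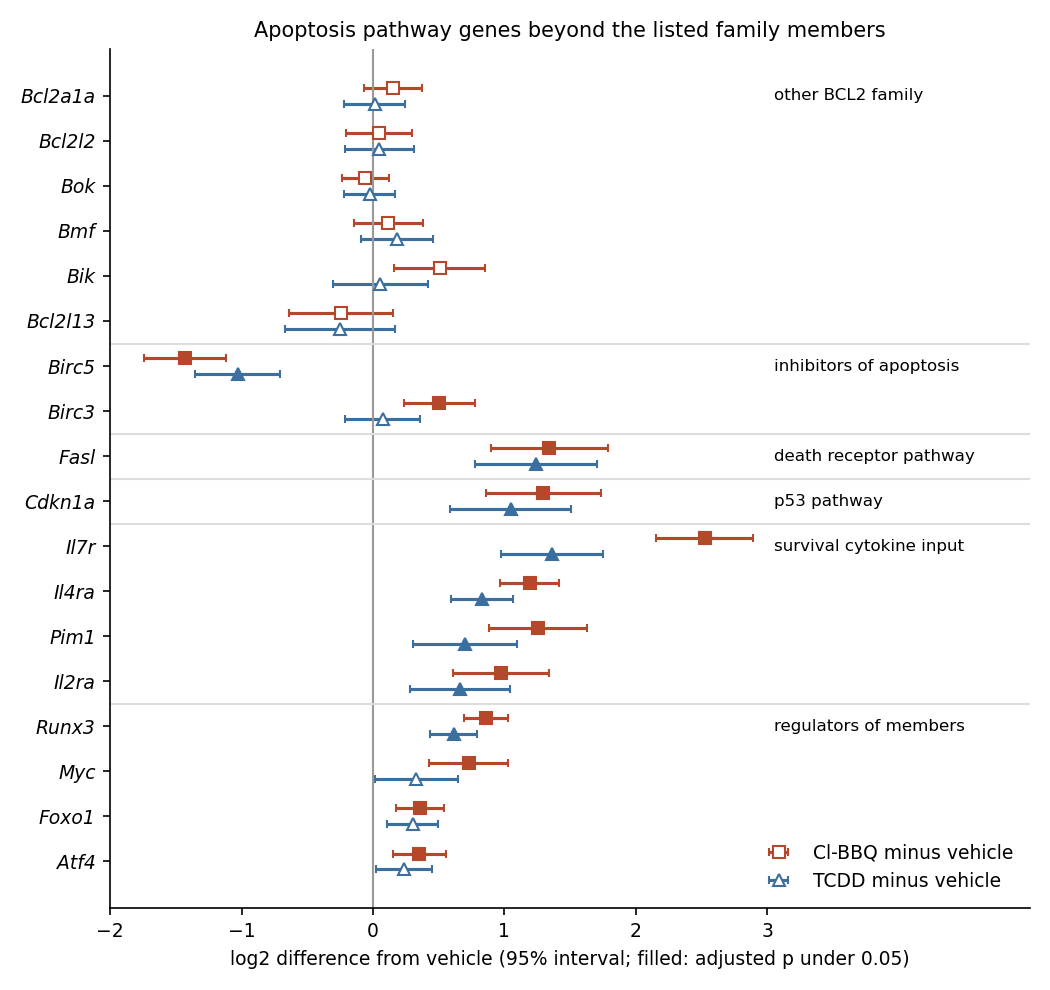
Log2 differences from vehicle, with 95% intervals, of genes outside the 9 members, for Cl-BBQ (squares) and TCDD (triangles), with filled symbols for an adjusted p under 0.05. All 6 further BCL2 family genes are open. Birc5 is filled below 0 with both ligands, and Fasl, Cdkn1a, Il7r, Il4ra, Pim1, Il2ra and Runx3 are filled above 0 with both. Birc3, Foxo1, Myc and Atf4 lie above 0 with both and are filled with Cl-BBQ only.

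Other properties of the arrays moved with the groups. All 9 tested mitosis genes fell with each ligand, where 3.5% of all tested genes fell with TCDD and 6.03% with Cl-BBQ. Their median log2 difference was -1.15 with TCDD and -1.56 with Cl-BBQ. Their mean per array lay at 6.92 to 7.15 with Cl-BBQ, 7.35 to 7.52 with TCDD and 8.29 to 8.82 with vehicle. Examples are Bub1b, a spindle checkpoint kinase, at -1.33 with TCDD and -1.62 with Cl-BBQ, and Top2a, a topoisomerase of dividing cells, at -1.30 with TCDD and -1.64 with Cl-BBQ (limma adjusted p from 3.4e-07 to 1.32e-05). The CD4 T cell list, with Cd4 and the Cd3 chains, had an array mean far above the floor in all arrays. It was 11.28 to 11.35 with Cl-BBQ, 11.28 to 11.33 with TCDD and 10.98 to 11.24 with vehicle. All 7 tested genes of this list lay above 0 with each ligand. All TCDD arrays lay above all vehicle arrays for 5 of 7, beside 6.31% of all tested genes. All Cl-BBQ arrays did so for 2 of 7, beside 6.08%. In this list 1 of 7 genes, Thy1, was called higher with each ligand (limma adjusted p = 0.0351 with TCDD and 0.00418 with Cl-BBQ). Over all tested genes 3.21% were called higher with TCDD and 5.31% with Cl-BBQ. With TCDD the count of the CD4 list moved under 12 of 21 alternatives, to 2 with an intensity trend and to 0 under the rest. The rest included leaving out any 1 of TCDD arrays 1, 2 and 3 and any 1 vehicle array. Both CD8 genes were tested and neither passed, with an array mean of 5.66 to 6.12 with Cl-BBQ, 5.34 to 6.01 with TCDD and 5.28 to 5.55 with vehicle. Cd8a was above the floor in 7 of 13 arrays and in no vehicle array, so it entered the test through ligand arrays alone. Its difference was 0.60 with Cl-BBQ (limma adjusted p = 0.151), with all Cl-BBQ arrays above all vehicle arrays, and 0.58 with TCDD (limma adjusted p = 0.254).

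Markers of other cells were mostly near the floor. Of 7 B cell markers 6 were named and 5 were above the floor. The array mean of those named was 4.13 to 4.34 with Cl-BBQ, 4.03 to 4.28 with TCDD and 4.41 to 4.63 with vehicle. Cd22 alone passed, and Ms4a1 lay below the floor in all arrays. Cd79b went the other way, at 0.64 with Cl-BBQ and 0.10 with TCDD. With Cl-BBQ, Cd79a differed by -0.20, Pax5 by -0.02 and Blnk by -0.03. With TCDD they differed by 0.0043, -0.02 and -0.11, so the list mean does not stand for its genes alike. Cd22 averaged 4.10 ± 0.16 with Cl-BBQ (n = 5), 4.03 ± 0.24 with TCDD (n = 4) and 6.17 ± 0.32 with vehicle (SD, n = 4). Every ligand array lay below the floor and only the 4 vehicle arrays above it, so Cd22 entered the test through vehicle alone and the size of its fall is only a lower bound. All 7 macrophage and monocyte markers were named and 3 were above the floor, with array means of 3.90 to 4.29 with Cl-BBQ, 3.99 to 4.42 with TCDD and 4.46 to 4.63 with vehicle. Among them Cybb fell, with 4.11 ± 0.42 with Cl-BBQ, 4.44 ± 0.70 with TCDD and 6.58 ± 0.50 with vehicle, where 3 of 5 Cl-BBQ and 2 of 4 TCDD arrays lay below the floor, so the size of its fall is a lower bound too. Cd68 was higher by 0.64 with Cl-BBQ (limma adjusted p = 0.0398) and by 0.79 with TCDD (limma adjusted p = 0.0236). Its call was lost under 9 of 21 alternatives with Cl-BBQ, among them leaving out any 1 of Cl-BBQ arrays 2 to 5 and vehicle arrays 1, 3 and 4, and under 6 of 21 with TCDD, among them leaving out any 1 of TCDD arrays 1 and 4 and vehicle arrays 1, 3 and 4. Lyz2, Adgre1 and Cd14 lay below the floor in all arrays. Natural killer markers (4 of 5 named, 2 above the floor) and dendritic cell markers (5 of 6 named, 1 above the floor) had no gene that passed. The part of mitosis, Cd22 or Cybb in the results for Bcl2 and Bcl2l11 was not tested.

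The genes whose log2 values followed Bcl2 and Bcl2l11 most closely over the 13 arrays were found by Pearson's r, given as a description. The arrays span the 3 groups and share their normalization, so r takes in the differences between groups. For Bcl2 the highest were Exosc8 (r = 0.923), Hnrnpab (0.921), Hnrnpr (0.896), Tcf19 (0.894) and Ahsa1 (0.886), and the lowest were Tmem9b (-0.889), Ptpn22 (-0.885) and Platr5 (-0.884). Exosc8, a subunit of the RNA exosome, had a log2 difference of -0.50 with TCDD and -0.48 with Cl-BBQ. For Bcl2l11 the highest were Ccr9 (r = 0.963), Cd7 (0.951), Gpr171 (0.951), Cish (0.949) and Sntb1 (0.945), and the lowest were H1f5 (-0.955), Rad21 (-0.952) and Cit (-0.952). Ccr9, a chemokine receptor of gut-homing T cells, had a log2 difference of 1.61 with TCDD and 1.89 with Cl-BBQ, and H1f5, a linker histone, had -0.97 with TCDD and -1.27 with Cl-BBQ.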

How the data were processed

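RNA of sorted donor CD4+ T cells was measured on 13 single-colour arrays. The deposited values are log2 expression for 41345 probe sets, made with RMA per the submitters' processing notes (version not given in the sources used here), which corrects background, equalizes the distributions of the arrays and summarizes probes, so a shift of all transcripts cannot be seen. The platform annotation gives 23521 probe sets 1 symbol and 1814 several, and 16010 are unnamed here. Groups came from the source descriptions in the labels.

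All 13 arrays entered a single fit of group means in limma (version 3.58.1 under R 4.3.3, with 10 residual and 4.22 prior degrees of freedom). The fit was also run on simulated data, with no outcome given here. P-values are two-sided, adjusted within each comparison by the Benjamini-Hochberg method, with calls at 0.05. Intervals are 95% intervals, and the number of arrays limits the precision. Named were all members, every further family gene tested, up to 6 called genes per list, and for each called member the 5 genes with the highest and 3 with the lowest correlation. No batch was examined, since neither slide nor scan date was used here. The members and lists were chosen with earlier results of these data known. Alternatives changed the filter, normalization, prior, groups, probe sets and replicate block, and left out each array.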

Additional observations from a re-analysis of the deposited data

Results flagged for a closer look

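Among the members, Bcl2l11 was at 7.29 in the first Cl-BBQ array, away from 7.92 to 8.04 in the other 4 and still above every vehicle array. Bak1 was at 9.84 in the third vehicle array, below 10.13 to 10.17 in the others, and Bad was at 7.44 in the third TCDD array, above 7.21 to 7.25 in the others. Beyond the members, Bok was at 5.70 in the fifth Cl-BBQ array (others 5.76 to 5.77), Bcl2l13 at 5.68 in the first TCDD array (others 5.91) and Plk1, a mitotic kinase, at 7.56 in the first TCDD array (others 7.42 to 7.44). Each of these arrays lay far from the rest of its own group relative to the range of the group. This was so for 6 of 99 combinations of gene and group examined, and chance gives about 1 in 20.

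Il7r differed between the ligands by 1.16 on the log2 scale, higher with Cl-BBQ than with TCDD (limma adjusted p = 0.0392), with all 5 Cl-BBQ arrays above all 4 TCDD arrays.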

How the results depend on the processing

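The number of members called stayed at 2 with TCDD, 2 with Cl-BBQ and 0 between the ligands under all 21 alternatives, 8 of processing and 13 that left out 1 array. Bcl2 and Bcl2l11 were called under every one, with Bcl2 at -0.95 to -0.76 with TCDD (adjusted p 0.0011 to 0.0179) and -0.69 to -0.53 with Cl-BBQ (adjusted p 0.00562 to 0.0459), and Bcl2l11 at 0.93 to 1.11 with TCDD and 1.15 to 1.33 with Cl-BBQ. Bbc3, Pmaip1 and Bmf gave no value under the stricter filter. Of 561 values of the members, 550 kept direction and side of the threshold and 11, none called, changed sign.

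Replicate numbers did not pair the arrays. Same-numbered arrays had correlations of -0.06 to 0.08 in their deviations over 12 pairs, none over 0.1, and 2 arrays correlated best with their own number. With the replicate block, 714 genes were called with TCDD beside 853 and 1114 with Cl-BBQ beside 1441, the members' counts stayed, Bcl2l2 with Cl-BBQ was -0.0085 and Bid between the ligands -0.0053. The fifth Cl-BBQ array shares its number with no other array, so the block in effect removed it from the comparisons. Leaving that array out gave the same values for Bcl2l2 and Bid.

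Values near 0 changed sign. Between the ligands, Bcl2l2 was 0.0156 after a second quantile normalization and 0.0089 after median centring, and Bcl2a1a with TCDD was -4e-04 after median centring. Over all alternatives that gave a value, of processing and with 1 array left out, ranges with TCDD were -0.0934 to 0.0574 for Pmaip1, -0.0466 to 0.0978 for Bak1, -0.059 to 0.154 for Bcl2l2, -0.046 to 0.0823 for Bcl2a1a, -0.0986 to 0.0213 for Bok, -0.0793 to 0.158 for Bik and -0.0254 to 0.156 for Birc3. With Cl-BBQ they were -0.0068 to 0.163 for Bbc3 and -0.0085 to 0.0761 for Bcl2l2. Between the ligands they were -0.216 to 0.0048 for Bbc3, -0.022 to 0.0871 for Mcl1, -0.0053 to 0.157 for Bid, -0.107 to 0.106 for Bcl2l2, -0.166 to 0.0133 for Bmf, -0.131 to 0.177 for Bcl2l13, -0.0784 to 0.0415 for Bok and -0.0028 to 0.0835 for Foxo1.

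List counts ranged over the alternatives, beside the count reported. With TCDD, survival cytokine genes were 2 to 4 beside 4, regulators 1 to 2 beside 1, CD4 markers 0 to 2 beside 1, natural killer markers 0 to 1 beside 0 and macrophage markers 1 to 2 beside 2. With Cl-BBQ, further family genes and apoptosome genes were 0 to 1 beside 0, inhibitors 1 to 2 beside 2, death receptor and p53 genes 1 to 2 beside 1, regulators 2 to 6 beside 4, CD4 markers 1 to 3 beside 1, B cell markers 1 to 2 beside 1, natural killer markers 0 to 1 beside 0 and macrophage markers 1 to 2 beside 2. Bik passed with Cl-BBQ under the stricter filter, without the second TCDD array and without the fourth vehicle array (lowest adjusted p 0.0348). Foxo1 passed with TCDD under 4 alternatives and was lost with Cl-BBQ under the replicate block (adjusted p 0.0628). With no filter on dim genes, Pim1 and Il2ra did not pass with TCDD (adjusted p 0.0605 and 0.0692) nor Atf4 with Cl-BBQ (adjusted p 0.0513), which was also lost with 2 groups fitted alone and under the block (adjusted p up to 0.0693). Il7r between the ligands had an adjusted p of up to 0.202. The causes were not tested. Pmaip1 and the further Bcl2 set lie near the floor, so the signal over background limits what they can show.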
